A study of Arabidopsis thaliana with 24 samples.

Results

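GSTU16 (AT1G59700), GSTU20 (AT1G78370) and GSTU25 (AT1G17180) encode glutathione transferases of the tau class in Arabidopsis thaliana. They are 3 of the 13356 genes that had a probe set with a single gene name among 22746 tested probe sets. The genes were selected on their log2(intensity + 16) values over the 6 groups of the series, so these values are given as a description and no test is attached to them.

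RNA of rosettes from 4-week-old plants was measured on 24 Affymetrix arrays, in 6 groups of 4 that the labels call biological replicates. Col (genotype Col-0) and mil4 plants were sprayed with either water or BTH at 300 µM, and sid2 and mil4 sid2 double mutant plants with water only. Every spray was applied 2 days before the rosettes were collected. BTH, or benzothiadiazole, is a chemical that mimics the defence hormone salicylic acid, and sid2 lies in ICS1, which encodes an isochorismate synthase of salicylic acid synthesis. The series title places MIL4 in the salicylic acid defence response. All plants grew at 22 °C in a photoperiod of 14 h. The mil4 and sid2 alleles and the number of plants behind an array were not given in the sources used here. No mutation in any of the 3 genes is named in the labels.

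Glutathione transferases join the tripeptide glutathione to electrophilic molecules such as herbicides and oxidised lipids, and the conjugates are then carried into the vacuole. The tau class is the large plant-specific class, with many members in tandem arrays, and its genes are known for responses to hormones, oxidative stress and foreign chemicals. GSTU20 is known from work in Arabidopsis as a partner of the jasmonate-conjugating enzyme FIN219 (JAR1) and in the synthesis of glucosinolates, sulfur-containing defence compounds. GSTU25 is known for acting on the explosive TNT.

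The arrays had been scaled to a common trimmed mean of 500, and array medians ranged from 151.9 to 185.0. On an array, 9.61% to 17.93% of probe sets lay under an intensity of 16. For GAPDH the ratio of 3′ to 5′ signal, a measure of RNA integrity, was 0.651 to 1.227 on 23 arrays and 1.648 on mil4 water replicate 4. All Col and mil4 arrays were hybridized on 3 days and all sid2 and mil4 sid2 arrays on the day numbered 4, so day and genotype cannot be told apart where sid2 or mil4 sid2 is set against Col or mil4. Within Col and mil4 all water arrays were on modules 1 and 3 of the fluidics station and all BTH arrays on modules 2 and 4, so module and BTH cannot be told apart within these genotypes. The leaf genes RCA and LHCB4.2 summed to 37745 to 64912 on every array, and the root genes PYK10 and EXPA7 to 422 to 967. No flower marker of 7 had a probe set with a single gene name.

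GSTU16 stood highest in Col with water. Its intensities there were 587.0, 462.3, 498.6 and 481.1 in replicates 1 to 4 (507 ± 55.2, SD, n = 4). In Col with BTH they were 336.4, 238.5, 299.0 and 289.1 (291 ± 40.4). No Col BTH array reached the lowest Col water array, and the difference was −0.77 on the log2 scale (SE 0.14), a level 1.71-fold lower. The same-numbered pairs of Col arrays differed by −0.77, −0.91, −0.71 and −0.70. Without overlap any pairing gives negative differences, so their shared sign adds nothing. Of all probe sets, 12.7% were called (limma adjusted p under 0.05) in that comparison. The share of all probe sets without overlap was not counted, here or in the comparisons below, and need not equal the share called. The gene was selected on these values. Rosettes hold many cell types, and fewer cells of a type cannot be told apart from less RNA per cell in any value here.

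In mil4 the GSTU16 level was low with either spray. Intensities were 209.5, 262.3, 289.0 and 285.4 with water (262 ± 36.7, SD, n = 4) and 250.3, 281.8, 282.9 and 226.4 with BTH (260 ± 27.2). The ranges overlapped over most of their length, and the BTH difference in mil4 was 0.00 on the log2 scale (SE 0.14), in a comparison in which 17.4% of all probe sets were called. With the module of the fluidics station as a block it was 0.20. The response in mil4 minus that in Col was 0.77 (SE 0.20), in an interaction that called 1.01% of all probe sets. The 4 Col water arrays enter both the BTH comparison in Col and that of mil4 with Col, so those values are not independent.

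**Figure D1:**
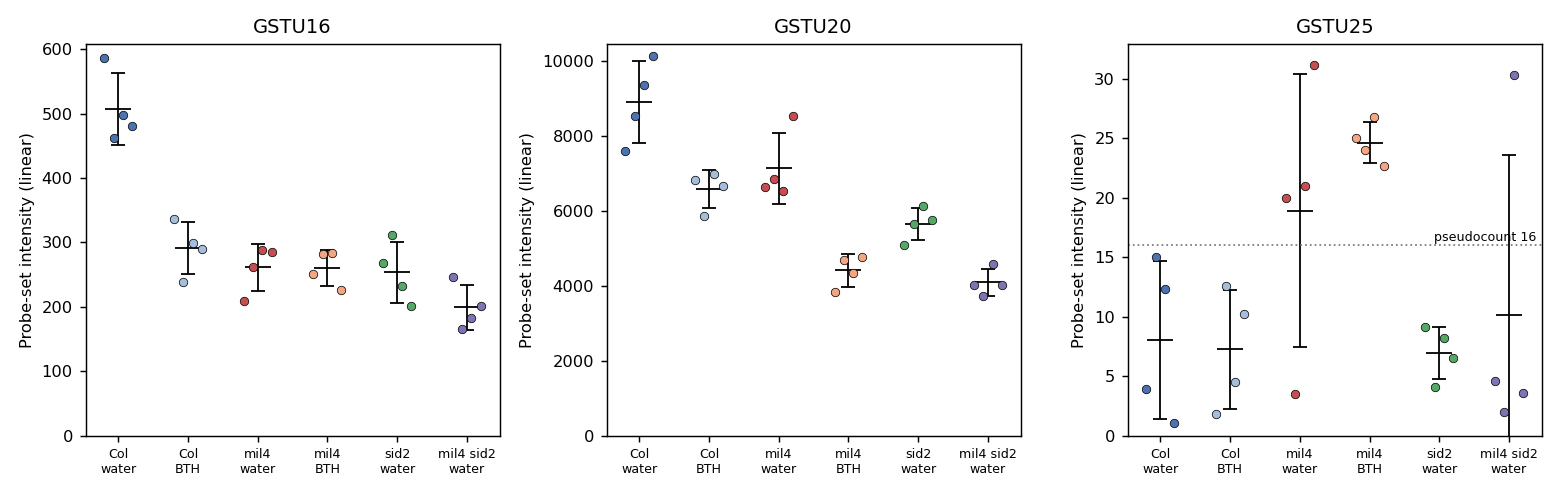
Intensity (linear scale, in each panel from 0) of GSTU16, GSTU20 and GSTU25 on each of the 24 arrays, as points by group, with the mean and SD of 4 arrays per group. GSTU16 is highest on the 4 Col water arrays, GSTU20 is lowest in mil4 with BTH and in mil4 sid2, and GSTU25 lies between 1.1 and 31.2 throughout.

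The mutants sprayed with water all had less GSTU16 signal than Col. In sid2 the intensities were 267.6, 311.6, 232.4 and 202.1 (253 ± 47.1, SD, n = 4), and in mil4 sid2 they were 246.3, 166.3, 183.1 and 201.7 (199 ± 34.5). None of these 8 arrays, and none of the mil4 water arrays, reached the lowest Col water array. Against Col with water the differences were −0.92 for mil4 (1.89-fold lower), −0.97 for sid2 (1.96-fold lower) and −1.29 for mil4 sid2 (2.44-fold lower), each with SE 0.14 on the log2 scale. The share of all probe sets called in these comparisons was 7.4%, 13.5% and 13.6%.

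The mil4 difference of GSTU16 from Col was −0.73, −1.0 and −0.93 within the 3 days that held both genotypes. The double mutant lay 0.60 (SE 0.20, log2) above the sum of the single mutant differences, which was −1.89. Its range overlapped those of mil4 and of sid2, with differences of −0.37 and −0.32. In those comparisons 5.57% and 0.47% of all probe sets were called.

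Ordered by mean log2 level, GSTU16 ran from Col water through Col BTH, mil4 water, mil4 BTH and sid2 to mil4 sid2. The gap between Col water and Col BTH was 0.77, against a pooled SD of 0.20 between arrays of a group. The next 3 gaps, between Col BTH, mil4 water, mil4 BTH and sid2, were 0.00 to 0.14, within that SD. The SD is a spread of single arrays and not an error of the means, so no equality of these groups is read from it. The last gap, between sid2 and mil4 sid2, was 0.32 and the ranges overlapped.

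TRY, a gene that restrains trichome formation and the only trichome marker measured, was called in 2 of the comparisons in which GSTU16 arrays did not overlap. It was lower in Col with BTH than in Col with water (log2 −0.84, SE 0.26, limma adjusted p = 0.0341) and lower in mil4 than in Col with water (−0.97, adjusted p = 0.0219). Its intensity was 79.0 to 101 in Col water, 28.5 to 73.4 in Col BTH and 19.3 to 69.1 in mil4 water. With BTH in mil4, where the GSTU16 difference was 0.00, TRY differed by −0.54 (adjusted p = 0.171, not passed). Against Col it differed by −0.19 in sid2 (adjusted p = 0.692) and by −0.51 in mil4 sid2 (adjusted p = 0.221), where GSTU16 differed by −0.97 and −1.29. TRY was not the only marker called in these comparisons. CLE41, of vascular tissue, was lower with BTH in Col (−0.39, adjusted p = 0.0285) and in mil4 sid2 against Col (−0.37, adjusted p = 0.0353). It was also lower with BTH in mil4 (−0.37, adjusted p = 0.0301) and did not pass in mil4 or sid2 against Col. FMA, of guard cells, was lower with BTH in Col (−0.47, adjusted p = 0.0383). The part of these markers in the GSTU16 values was not tested.

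GSTU20 was bright on every array, with intensities from 3731.5 to 10141.8. In Col with water they were 7596.5, 8536.8, 9367.4 and 10141.8 (8911 ± 1094, SD, n = 4), and in Col with BTH 6832.4, 5873.8, 6992.6 and 6656.9 (6589 ± 496). All Col BTH arrays lay below all Col water arrays, in a comparison that called 12.7% of all probe sets. The difference was −0.43 on the log2 scale (SE 0.11, 1.35-fold lower), and the 4 same-numbered pairs gave −0.15, −0.54, −0.42 and −0.61.

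Unlike that of GSTU16, the GSTU20 signal was also lower with BTH in mil4. The water arrays of mil4 had intensities of 6631.0, 6856.7, 6531.7 and 8539.1 (7140 ± 943, SD, n = 4), and the BTH arrays 3831.7, 4703.8, 4339.4 and 4778.1 (4413 ± 433). The groups did not overlap, where 17.4% of all probe sets were called, and the difference was −0.69 (SE 0.11, 1.61-fold lower), with −0.59, −0.84 and −0.67 within the 3 days. With quantile normalization it was −0.53. The response in mil4 minus that in Col was −0.26 (SE 0.16).

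**Figure D2:**
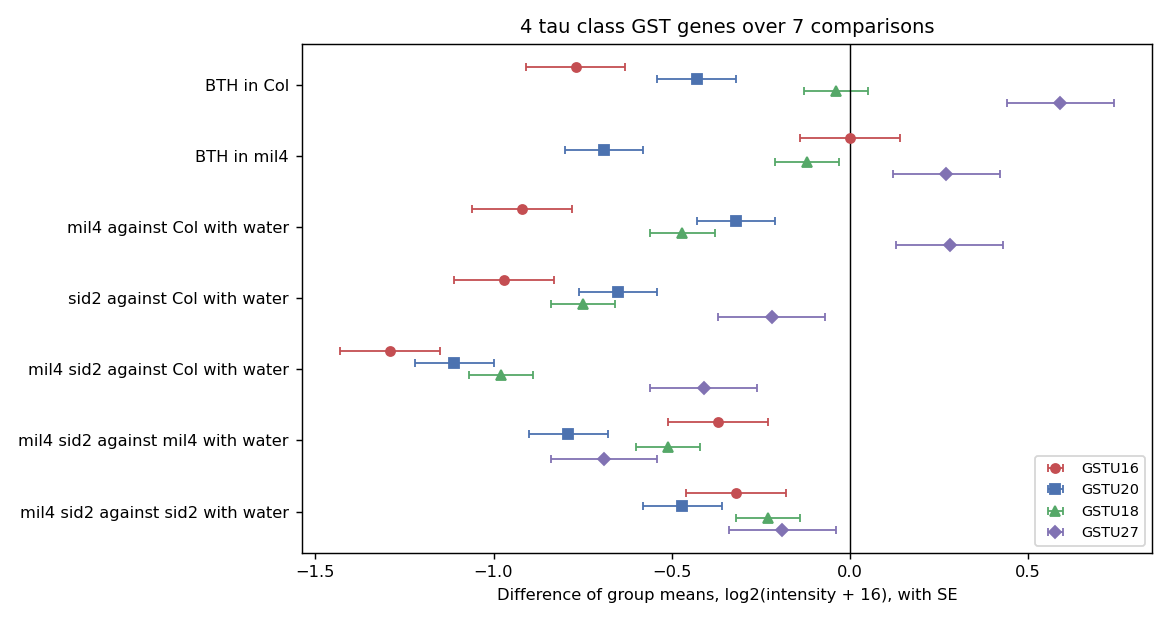
Differences between group means of log2(intensity + 16) for GSTU16, GSTU20 and the further tau class genes GSTU18 and GSTU27 in 7 comparisons, with the standard error from the fit over all 24 arrays (n = 4 per group). The GSTU16 difference with BTH is −0.77 in Col and 0.00 in mil4, while that of GSTU20 is −0.43 and −0.69.

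Among water-sprayed plants GSTU20 was lower in sid2 and lowest in the double mutant. Intensities in sid2 were 5081.2, 5649.4, 6131.4 and 5774.5 (5659 ± 436, SD, n = 4), and in mil4 sid2 4033.0, 3731.5, 4583.0 and 4030.2 (4094 ± 355). Neither range reached that of Col with water, in comparisons that called 13.5% (sid2) and 13.6% (mil4 sid2) of all probe sets. The mil4 sid2 range lay below both the mil4 and the sid2 range, where 5.57% and 0.47% were called. By limma, 4349 and 2542 of the 22746 probe sets had an unadjusted p under 0.05 there. None of these is a share of probe sets without overlap, which was not counted and can be larger than the share called. The differences from Col were −0.65 for sid2 (1.57-fold lower) and −1.11 for mil4 sid2 (2.17-fold lower), each with SE 0.11.

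The mil4 and Col water ranges of GSTU20 overlapped, with a difference of −0.32 that was −0.58, 0.17 and −0.34 within the 3 days and −0.49 with the run as a block. Between mil4 sid2 and sid2, hybridized on the same day, the difference was −0.47 (1.38-fold lower), and −0.46 and −0.47 within the 2 runs of that day. Between mil4 sid2 and mil4 it was −0.79 (1.74-fold lower). The sum of the single mutant differences was −0.97, from which the double mutant differed by −0.15 (SE 0.14).

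By mean log2 level GSTU20 ran from Col water through mil4 water, Col BTH, sid2 and mil4 BTH to mil4 sid2. Against a pooled SD of 0.14 between single arrays, the gaps were 0.11 between mil4 water and Col BTH and 0.11 between mil4 BTH and mil4 sid2. Both were within that SD, and no equality of these neighbours is read from it. The gap between sid2 and mil4 BTH was 0.36, and it was the only one between neighbours without overlap. Col water and mil4 water, 0.32 apart, overlapped, and so did Col BTH and sid2, 0.22 apart.

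GSTU25 had intensities of 1.1 to 31.2 and lay under 16 on 16 of the 24 arrays, where values carry mostly background. Its values are given as intensities, and no difference or fold is read from them. Its intensities were 3.9, 15.0, 12.3 and 1.1 in Col water and 1.8, 12.6, 4.5 and 10.2 in Col BTH. In mil4 they were 20, 3.5, 21.0 and 31.2 with water and 25.0, 24, 26.8 and 22.7 with BTH. All 4 mil4 BTH arrays lay above 16 and all 8 Col arrays under it, and the mil4 water arrays ran from 3.5 to 31.2, across both. No share over all probe sets stands beside this order, since mil4 BTH was not compared with Col. The value 16 is the pseudocount and not a detection limit, so no difference between these groups is read from the order.

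In sid2 GSTU25 had intensities of 9.1, 4.1, 8.2 and 6.5. In mil4 sid2 they were 4.6, 2.0, 30.3 and 3.6, with 1 array above 16 and 3 under it. The ranges overlapped in all 7 pairwise comparisons made, which set mil4 BTH against mil4 water only.

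**Figure D3:**
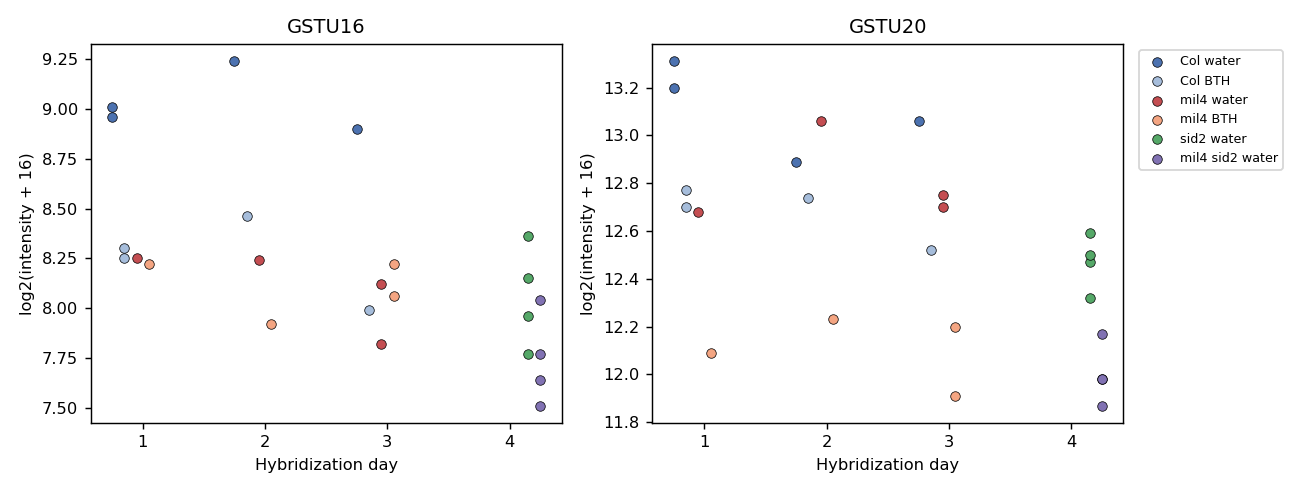
Level of GSTU16 and GSTU20, as log2(intensity + 16), on each array by hybridization day (days numbered 1 to 4), with points coloured by group and axes that do not start at 0. Day 4 holds all sid2 and mil4 sid2 arrays and no others, while days 1 to 3 hold both sprays of Col and of mil4, and within each of them GSTU16 is higher in Col with water than in the other groups.

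Over the 24 arrays GSTU16 and GSTU20 had a Pearson r of 0.73 on the log2 scale, and an r of 0.03 once the group means were removed. GSTU25 had r = −0.19 with GSTU16 and −0.15 with GSTU20. These values describe arrays that share groups, days and a scaling, and carry no p.

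The named probe sets most like GSTU16 over the 24 arrays, of 5973 with a mean above the median, were UGT88A1 (r = 0.907), AT5G02230 (0.888), AT2G31790 (0.885), AT3G56880 (0.869) and AT1G76240 (0.865). UGT88A1 encodes a glycosyltransferase. With group means removed their r values were 0.632, 0.521, 0.614, 0.10 and 0.357. Those most like GSTU20 were AT3G21670 (r = 0.921), AT3G06035 (0.918), AT4G16980 (0.917), AT1G44000 (0.904) and AT5G12470 (0.903), and within groups their r values were 0.243 to 0.596. For GSTU25 the highest values were lower, from 0.695 for AT4G30600 and 0.688 for AR401 to 0.643 for GAMMA-VPE, a vacuolar processing enzyme gene. These are the largest of 5974 values, and GSTU25 lay under 16 on 16 of the 24 arrays. No shared expression is read from them.

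All 3 genes lie on chromosome 1, each near other tau class genes in the RefSeq gene order. GSTU20 follows GSTU23, GSTU22 and GSTU21, with 2, 1 and 0 protein-coding genes between, and is followed by GSTU19, which was not analysed here. GSTU15 precedes GSTU16 with 3 protein-coding genes between. GSTU25 lies between GSTU24, not analysed here, and GSTU26. Tandem genes of this class can be alike in sequence, and whether their probe sets also bind transcripts of neighbours was not tested.

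The measured neighbours were dim. By limma none of the 5 was called in any of the 8 comparisons, while 5 of the 40 tests had an unadjusted p under 0.05. Per comparison, 2267 to 6421 of the 22746 probe sets had such a p, so this count is near the background. Intensities ran from 1.3 to 75.2 for GSTU15, from 1.2 to 43.3 for GSTU21, from 4.4 to 121.2 for GSTU22 and from 6.0 to 91.2 for GSTU23. GSTU26 ran from 47.3 to 166.9, and its differences with BTH were −0.49 in Col (adjusted p = 0.15) and −0.58 in mil4 (adjusted p = 0.0647). GSTU22 was 1.08 higher in sid2 than in Col on the log2 scale, with an adjusted p of 0.0727.

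Beside the 3 genes, 11 further glutathione transferase genes were measured of 52 in the RefSeq gene table, 8 of the tau class and 3 of other classes. In Col 1 of the 11 rose with BTH and none fell, where 12.7% of all probe sets were called, with a median difference of −0.04 against 0.009 over all probe sets. In mil4 none passed by limma where 17.4% of all probe sets did, and the median was −0.11 against 0.053. At an unadjusted p under 0.05 it was 1 of the 11, beside 6421 of the 22746 probe sets. The interaction, which called 1.01% of all probe sets, called none of the 11 by limma. At an unadjusted p under 0.05 it was 0 of them, beside 2267 of the 22746 probe sets. Against Col with water, 1 of 11 was lower in each of mil4, sid2 and mil4 sid2, beside 7.4%, 13.5% and 13.6% of all probe sets called in either direction. The list medians were −0.01, −0.22 and −0.16 against −0.001, 0.092 and 0.075 over all probe sets. Between mil4 sid2 and mil4, 2 were lower, beside 5.57% of all probe sets called. Between mil4 sid2 and sid2, where 0.47% were called, none passed by limma. At an unadjusted p under 0.05 it was 1, beside 2542 of the 22746 probe sets. A count of 1 in 11 is near the background in several of these comparisons.

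GSTU18 (AT1G10360, tau class) was the gene called lower in each of the 3 mutants with water. Its intensity was 1500.4 to 1668.0 in Col water (1595 ± 69.6, SD, n = 4), 1026.0 to 1340.8 in mil4 water (1155 ± 134), 944 ± 66.6 in sid2 and 801 ± 38.3 in mil4 sid2. No mutant array reached the Col water range. The log2 differences from Col were −0.47 for mil4 (SE 0.09, adjusted p = 0.0022), −0.75 for sid2 (adjusted p = 8.12e-06) and −0.98 for mil4 sid2 (adjusted p = 2.06e-07), by limma over all probe sets. The levels were 1.38-fold, 1.68-fold and 1.97-fold lower.

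With BTH the GSTU18 signal was 1548 ± 70.7 in Col and 1057 ± 94.1 in mil4, and neither BTH difference passed (−0.04, adjusted p = 0.849, and −0.12, adjusted p = 0.436). It was also lower in mil4 sid2 than in mil4 (−0.51, adjusted p = 0.00201). The call of mil4 against Col was lost with the run as a block (−0.30, adjusted p = 0.298) and in a fit of both groups alone (adjusted p = 0.0771), and the differences within the 3 days were −0.21, −0.53 and −0.62. GSTU16 and GSTU18 thus both had less signal in the mutants than in Col with water, whereas GSTU16 but not GSTU18 had non-overlapping water and BTH arrays in Col. Whether the 2 genes differ in their BTH response was not tested.

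GSTU27 (AT3G43800, tau class) was the gene that rose with BTH in Col. Its intensities were 870.2, 907.5, 1023.2 and 1129.8 with water (983 ± 118, SD, n = 4) and 1447.6, 1699.0, 1572.0 and 1231.9 with BTH (1488 ± 199), without overlap. The difference was 0.59 (SE 0.15, 1.5-fold, limma adjusted p = 0.0123), opposite in sign to those of GSTU16 and GSTU20. With same-numbered arrays of every group as a block (the replicate block) the call held over all 24 arrays (adjusted p = 0.021). That is not a fit of the Col pairs. Fitted alone, the Col arrays kept the call without the block (adjusted p = 0.0378) and lost it with the block (0.59, adjusted p = 0.107). The call was also lost with the module as a block (0.47, adjusted p = 0.299) and without Col BTH replicate 2 (0.52, adjusted p = 0.0515). In mil4 the difference was 0.27 (adjusted p = 0.273), and the interaction did not pass (−0.32, adjusted p = 0.705).

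GSTU27 was lower in mil4 sid2 (736 ± 63.3) than in mil4 with water (1205 ± 237), by −0.69 on the log2 scale (1.61-fold, adjusted p = 0.00997). This call was lost with the module as a block (adjusted p = 0.0576) and in a fit of both groups alone (0.0545). GSTL3, of the lambda class, had intensities of 4464.9 to 6665.5 and GSTF4, of the phi class, of 82.6 to 203.0. GSTU28 and ATGSTF13 were dimmer, from 2.8 to 77.8 and from 1.6 to 74.5. By limma none of these 4 genes was called in any comparison, and 1 of their 32 tests had an unadjusted p under 0.05. Per comparison, 2267 to 6421 of the 22746 probe sets had such a p.

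**Figure D4:**
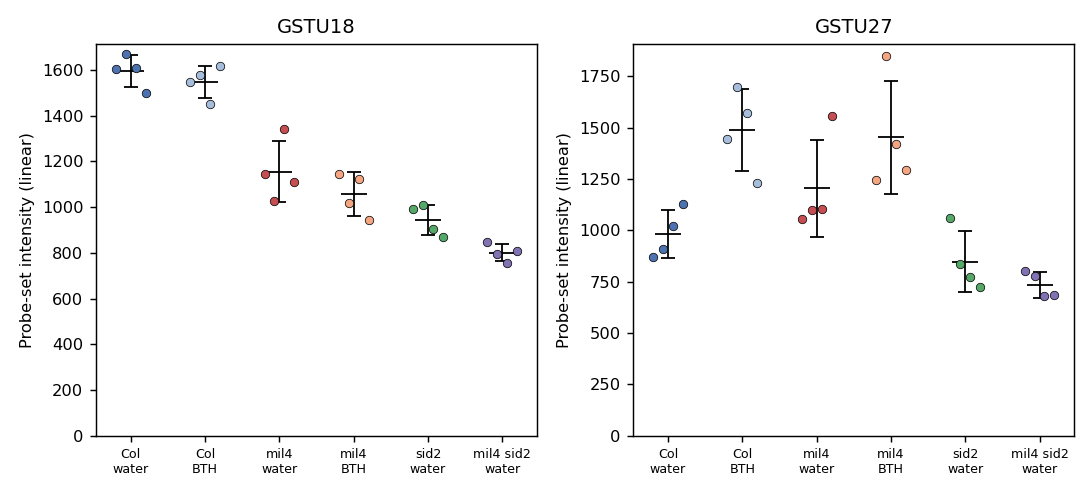
Intensity (linear scale from 0) of GSTU18 and GSTU27 on each array by group, with the mean and SD of 4 arrays. GSTU18 is lower in mil4, sid2 and mil4 sid2 than in Col with water, and GSTU27 is higher with BTH than with water in Col.

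Glutathione itself is made from cysteine, and cysteine from sulfate that is activated by ATP sulfurylase and reduced through sulfite reductase. Of 33 genes listed for glutathione synthesis, recycling, breakdown and conjugate transport, 1 had a probe set with a single gene name, GR (AT3G54660), which encodes a glutathione reductase. Its intensities in Col were 3473.7, 3376.9, 3059.5 and 3844.4 with water and 2356.4, 2085.0, 2272.2 and 2148.1 with BTH, without overlap. It fell with BTH by 0.63 in Col (SE 0.09, 1.54-fold, limma adjusted p = 8.33e-05) and by 0.65 in mil4 (1.57-fold, adjusted p = 5.38e-05). With the replicate block the Col difference stayed at −0.63, with adjusted p = 0.000235 over all arrays and 0.053 for the Col arrays alone. It was also lower than Col in sid2 (−0.30, adjusted p = 0.034) and mil4 sid2 (−0.38, adjusted p = 0.00711), and these calls were lost in 9 and 3 of 18 alternatives.

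Of 31 genes listed for sulfate uptake and cysteine synthesis 3 were measured. APS4, an ATP sulfurylase gene, rose with BTH in Col (0.81, SE 0.17, adjusted p = 0.00206) and in mil4 (0.71, adjusted p = 0.00453). APS3, another ATP sulfurylase gene, was lower with BTH in Col (−0.43, adjusted p = 0.0272) and did not pass in mil4 (−0.14, adjusted p = 0.527). With the replicate block over all arrays both calls held, at adjusted p = 0.00314 for APS4 and 0.0328 for APS3. For the Col arrays alone with that block neither did, at unchanged differences (0.81, adjusted p = 0.0529, and −0.43, adjusted p = 0.149), and APS3 was already lost when only the Col arrays were fitted (0.0807). The APS3 call was lost in 8 of 20 alternatives, among them the fits without Col water replicate 3 or 4 and without Col BTH replicate 2, 3 or 4. With the module as a block APS4 lost its calls in Col (0.83, adjusted p = 0.0871) and in mil4 (0.74, adjusted p = 0.0949). For the mil4 arrays alone with the replicate block the APS4 call was lost too (0.71, adjusted p = 0.078).

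Both APS3 and SIR, the sulfite reductase gene, were lower in sid2 and mil4 sid2 than in Col with water. For APS3 the differences were −0.78 (adjusted p = 0.000164) and −0.92 (2.24e-05), and for SIR −0.71 (0.000422) and −0.84 (6.48e-05). Neither gene passed between mil4 and Col (−0.33, adjusted p = 0.135, and −0.29, adjusted p = 0.213). Against mil4, the double mutant was lower by −0.59 for APS3 (adjusted p = 0.0072) and −0.55 for SIR (0.0114), and in a fit of both groups alone the adjusted p values were 0.0627 and 0.0501.

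**Figure D5:**
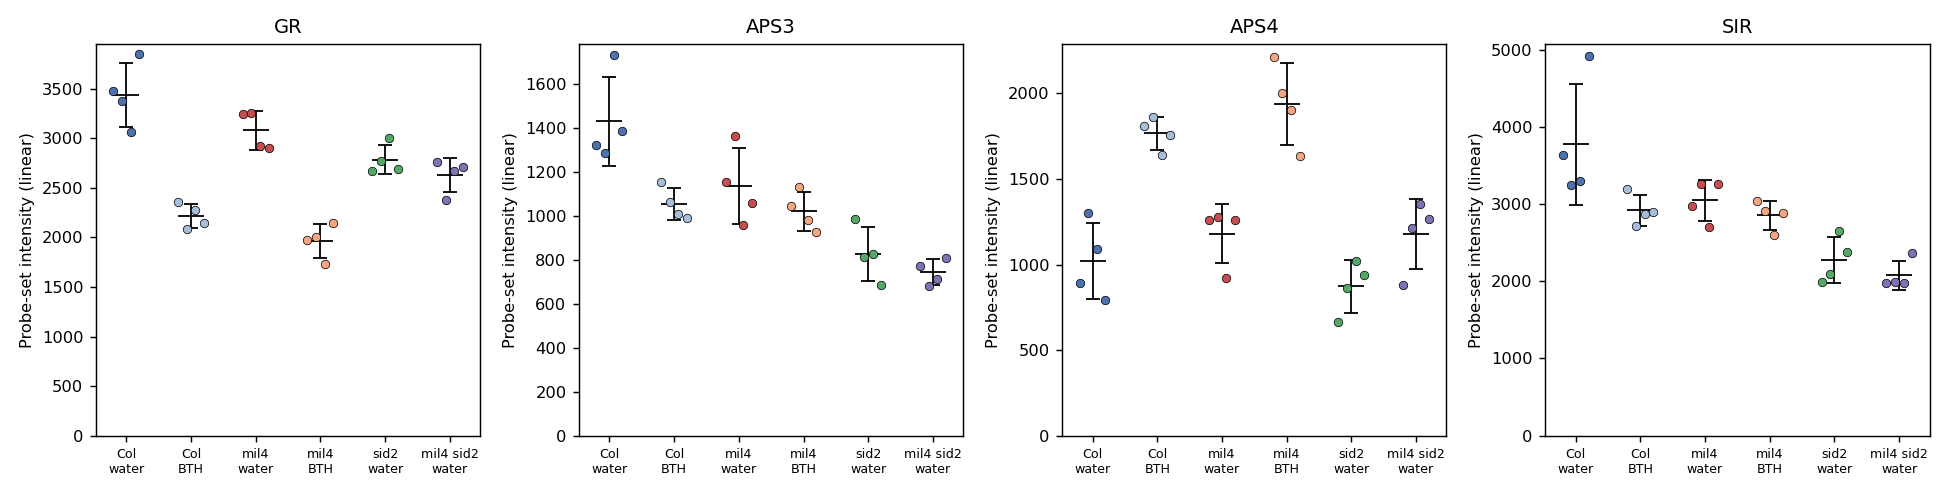
Intensity (linear scale from 0) of GR, APS3, APS4 and SIR on each array by group, with the mean and SD of 4 arrays. GR is lower and APS4 higher with BTH in Col and in mil4, and APS3 and SIR are lower in sid2 and mil4 sid2 than in Col with water.

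The other lists touched few measured genes. Of 25 genes listed for the aliphatic glucosinolate pathway, 20 were found by name in the RefSeq table. Of these 2 were measured, AOP3 and BCAT4, the latter an aminotransferase gene of methionine chain elongation. BCAT4 was lower than Col with water in mil4 (−0.54, adjusted p = 0.0301), sid2 (−0.57, adjusted p = 0.0132) and mil4 sid2 (−0.99, adjusted p = 8.39e-05), the mil4 call being lost in 10 of 20 alternatives and the sid2 call in 2 of 18. With BTH it did not pass (−0.44, adjusted p = 0.0589 in Col, and −0.32, adjusted p = 0.163 in mil4). None of the 5 measured genes of xenobiotic and oxylipin detoxification, AER, ALDH7B4, UGT73B4, UGT73B5 and UGT73C1, was called by limma in any comparison. Per comparison 0 or 1 of them had an unadjusted p under 0.05, beside 2267 to 6421 of the 22746 probe sets.

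Of 27 oxidative stress genes 2 were measured. ATMDAR2, a monodehydroascorbate reductase gene, rose with BTH in mil4 (0.59, adjusted p = 0.0177, lost in 5 of 20 alternatives, among them the fits without mil4 BTH replicate 1 or 3). It was lower in sid2 than in Col (−0.58, adjusted p = 0.0232, lost in 6 of 18). STZ, a zinc finger gene, fell with BTH in Col by 1.23 and rose in mil4 by 1.67, with adjusted p values of 0.00547 and 0.000314. For STZ in Col the replicate block gave an adjusted p of 0.0117 over all arrays, and the Col arrays alone gave 0.0552 without it and 0.086 with it, at an unchanged −1.23. With the module as a block it was −1.21 (adjusted p = 0.14).

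Of 10 measured cell type markers, 3 were called lower with BTH in Col (FMA of guard cells, TRY and CLE41 of vascular tissue), where 12.7% of all probe sets were called, and 2 with BTH in mil4 (CLE41 and LHCB4.2), where 17.4% were. In mil4 against Col 1 was lower (TRY, beside 7.4%), and in mil4 sid2 against Col 1 was (CLE41, beside 13.6%). None was higher, and several of these counts are near the background. The only senescence marker measured, SAG29, had intensities of 2.5 to 258 and passed in no comparison. The part of these markers in the values above was not tested.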

How the data were processed

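The authors deposited probe-set intensity values on a linear scale for 24 arrays. The values show a scaling of every array to a mean of 500 after 2% trimming. The software and the summary of probes are not stated in the labels or files used here. A deposited record for each array holds, per the file headers, hybridization settings, from which day, run and fluidics module were taken. Low intensities carry mostly background, and the scaling assumes like total signal on all arrays.

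The 64 control probe sets were left out and log2(intensity + 16) was taken of the other 22746, with no rescaling. Fold changes on that scale understate changes of dim probe sets. In the platform annotation 13513 probe sets had 1 gene, 503 had several and 8730 had none, and 13436 matched the RefSeq table of assembly TAIR10.1, used for names and gene order alone. No sequence was analysed here. Pearson's r between arrays of a group was 0.953 to 0.981. The precision is limited by the number of arrays, 4 per group, and p-values measure the spread between these samples.

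Genes other than the members were compared by limma 3.58.1 (R 4.3.3, 1 mean per group over all arrays, eBayes, 2-sided), with Benjamini-Hochberg adjustment over all probe sets within a comparison and a threshold of 0.05. The fit was tested on simulated data. The members and the lists were chosen with earlier results of these data known. The named genes were the members, neighbouring glutathione transferase genes, called genes of that family, the 3 called genes with the largest difference of each other list, and the 5 probe sets most correlated with each member. Genes given beyond these were chosen after their values were seen. Of the list symbols, 23 did not match the RefSeq table. A gene listed under such a symbol was counted as not measured, even if it has a probe set under another name.

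Arrays of Col water and Col BTH with the same number deviated together over 11373 probe sets (r = 0.22, 0.31, 0.16 and 0.16) and shared a run, so they were also fitted as pairs. This pairing rests on the data and the shared runs, not on the labels. Every other comparison had at least 1 pair under 0.1. Alternatives covered the pseudocount, quantile normalization, dim probe sets, day, run, module and replicate blocks, groups fitted alone and each array left out. The run as a random block was added after the data were seen.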

Additional observations from a re-analysis of the deposited data

Results flagged for a closer look

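In 126 groups of 4 arrays, over 21 genes, 8 held an array far from the other 3, and chance flags about 1 group in 20. GSTU25 had an intensity of 30.3 on mil4 sid2 replicate 3, against 2.0 to 4.6 on the others. GSTU28 was 12.9 on mil4 sid2 replicate 4, against 36.6 to 42.2. GSTU15 was 17.5 on Col BTH replicate 3, against 1.3 to 2.9, and 3.0 on mil4 water replicate 4, against 23.8 to 25.6. GSTU21 was 12.3 on sid2 replicate 1, against 4.1 to 4.5. These 4 genes are dim.

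Among brighter genes, GSTU27 was 1559.4 on mil4 water replicate 4, against 1056.0 to 1106.5, on the array with the GAPDH ratio of 1.648. APS4 was 923.2 on mil4 water replicate 3, against 1257.4 to 1278.8, and SIR was 2361.9 on mil4 sid2 replicate 4, against 1973.4 to 1986.2. No cause was tested for any of these arrays.

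The BTH response of STZ differed between genotypes. In mil4 it exceeded that in Col by 2.90 on the log2 scale (SE 0.40, limma interaction adjusted p = 0.000667, n = 4 arrays per group).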

How the results depend on the processing

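Of 478 differences of GSTU16, GSTU20 and GSTU25 recomputed under the alternatives, 472 moved by less than the spread between arrays. Many could hardly move more. A single array left out shifts a group mean by only a part of that spread. Fits of the groups alone or with the replicate block return the same difference. The count is therefore no measure of robustness. The sign changed only where the difference was near 0, for GSTU16 with BTH in mil4 (−0.12 to 0.20) and for GSTU25 with BTH in Col (−0.18 to 0.40), in sid2 against Col (−0.22 to 0.37), in mil4 sid2 against Col (−0.27 to 0.20) and in mil4 sid2 against sid2 (−0.24 to 0.21). The other 6 were GSTU16 with BTH in mil4 (0.20) and GSTU25 with BTH in Col (0.40) with module as a block, GSTU20 with BTH in mil4 under quantile normalization (−0.53), GSTU20 in mil4 against Col with run as a block (−0.49), and GSTU25 with a pseudocount of 1, at 1.23 for mil4 against Col and −1.20 for mil4 sid2 against mil4. The GSTU25 differences are of background-level values and are not read as folds.

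Of 162 recomputed counts of other glutathione transferase genes called, 144 kept within 1.5 times. For BTH in Col the count of 1 became 0 with module as a block and 0 to 2 with 1 array left out. For BTH in mil4 the count of 0 became 1 under quantile normalization, 1 with day as a block and 0 to 1 with 1 array left out. For mil4 against Col, 1 became 0 with run as a block and 0 in a fit of both groups alone. For mil4 sid2 against Col, 1 became 2 with a pseudocount of 64, 2 when dim probe sets were left out and 1 to 2 with 1 array left out. For mil4 sid2 against mil4, 2 became 1 with module as a block and 0 for the groups alone. Of the recomputed calls of single genes, 504 of 574 held and 70 were lost, none with a change of sign.

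In fits of the compared groups alone with the replicate block, the counts of other glutathione transferase genes became 0 for BTH in Col, 0 for mil4 against Col and 0 for mil4 sid2 against mil4. The GSTU18 adjusted p for mil4 against Col was then 0.197. The calls of single genes lost with BTH in Col under that fit held with the replicate block over all 24 arrays. The latter block ties same-numbered arrays of every group and is not a fit of the Col pairs. Same-numbered mil4 arrays with both sprays, and those of mil4 sid2 and sid2, also shared a run, but at least 1 pair of each had a correlation under 0.1, so they were not taken as pairs.

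Limits: intensities under 16 carry no usable order, which bears on GSTU25 and the dim neighbours. Day and genotype cannot be told apart for sid2 and mil4 sid2 against Col or mil4, where no fit with day or run as a fixed block was possible. The module fits of the BTH comparisons rest on the sid2 and mil4 sid2 arrays. The run as a random block had a correlation of 0.058.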
